A study of Mus musculus with 81 samples.

Results

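The genes described here write, copy, remove or use the methylation that silences endogenous retroviruses: Dnmt1, Uhrf1, Dnmt3a, Dnmt3b, Dnmt3l, Tet1, Setdb1 and Trim28. They were not read from a gene table but from the long terminal repeats (LTRs) that lie inside them. Of the 970384 LTR loci of the RNA data, 73 lie wholly inside the GENCODE bodies of these 8 genes on GRCm38, 72 of them in introns and 1 in an exon. An LTR that held the same reads as another in the same intron was counted once, which left 72 loci of 31 repeat names, and the reads of a gene are the sum over its loci. An LTR lies inside 24367 genes in all.

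The samples came from OG2 mice, which carry EGFP under the Pou5f1 promoter and distal enhancer on a C57BL/6J background. F0 dams drank water with 50 nM tributyltin (TBT), an organotin compound, or with 0.1% DMSO, and testes of male fetuses were taken at E18.5 in the F1 generation, which was exposed in utero, and in the F3 generation, which was not. Cells were sorted into EGFP-positive germline cells, split by side scatter into P4 and P5, and EGFP-negative somatic cells, P6. The DMSO and TBT groups of F1 held 5 and 7 RNA libraries of P4, 4 and 7 of P5, and 5 and 7 of P6, and in F3 each population had 4 DMSO and 5 TBT libraries. Methylated DNA of P6, enriched with a methyl-CpG-binding domain (MBD), was sequenced from 3 DMSO and 4 TBT samples of F1 and from 5 and 7 of F3.

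DNA methylation is copied after each round of replication by Dnmt1, which Uhrf1 brings to the half-methylated daughter strands. New methylation is written by Dnmt3a and Dnmt3b, with Dnmt3l as a partner that has no catalytic activity of its own. Tet1 oxidises methylated cytosine, Setdb1 trimethylates lysine 9 of histone H3, and Trim28 is the corepressor that joins Setdb1 to zinc finger proteins bound at retroviral DNA. In the male germline methylation is erased in early fetal life and written anew in prospermatogonia before birth, and Dnmt3l is known for its part in silencing retrotransposons at that stage.

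The loci that held the most reads of Dnmt1, Uhrf1, Dnmt3a, Dnmt3b and Dnmt3l are shown because they are the leading loci of the genes that write and copy methylation. They held all reads of Uhrf1 and Dnmt3l, 68.1% of those of Dnmt3a, 33.2% of those of Dnmt1 and 18.9% of those of Dnmt3b. They were read from the GRCm38 genome on the plus strand, 5′ to 3′, with CpG sites in capitals. The Dnmt1 locus, an MT2B repeat at chr9:20919387-20919514, lies in intron 23 of transcript Dnmt1-201. The Uhrf1 locus, an ORR1A3 repeat at chr17:56321330-56321518, lies in intron 15 of Uhrf1-201 and is the only LTR in that gene. The Dnmt3a locus, an MT2B repeat of 22 bp at chr12:3900442-3900463, lies in intron 16 of Dnmt3a-201. The Dnmt3b locus, an RMER6C repeat at chr2:153681375-153681651, lies in intron 21 of Dnmt3b-201. The Dnmt3l locus, an MT2B repeat at chr10:78056142-78056249, lies in intron 9 of Dnmt3l-201 and is the only LTR in that gene.
Dnmt1 MT2B locus: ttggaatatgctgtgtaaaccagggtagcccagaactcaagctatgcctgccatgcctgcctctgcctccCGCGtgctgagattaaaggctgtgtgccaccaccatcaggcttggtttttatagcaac
Uhrf1 ORR1A3 locus: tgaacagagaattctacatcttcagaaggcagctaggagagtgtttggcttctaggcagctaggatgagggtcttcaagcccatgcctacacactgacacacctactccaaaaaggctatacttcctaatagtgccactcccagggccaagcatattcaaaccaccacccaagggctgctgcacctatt
Dnmt3a MT2B locus: gaatgactaagaactaagcatg
Dnmt3b RMER6C locus: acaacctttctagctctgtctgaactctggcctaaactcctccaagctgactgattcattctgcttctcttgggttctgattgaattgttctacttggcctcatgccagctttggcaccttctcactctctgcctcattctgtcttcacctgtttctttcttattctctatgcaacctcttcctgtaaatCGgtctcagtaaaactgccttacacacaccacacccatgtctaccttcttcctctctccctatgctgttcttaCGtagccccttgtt
Dnmt3l MT2B locus: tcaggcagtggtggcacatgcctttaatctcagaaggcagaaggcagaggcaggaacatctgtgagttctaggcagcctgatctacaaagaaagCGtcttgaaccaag
The 5 sequences hold between 0 and 2 CpG sites. MT2B repeats made up 10 of the 72 loci and 3 of the 8 leading loci, against 2.59% of the 256646 distinct LTR loci inside genes.

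Reads at loci of 1 intron were mostly alike whatever the length of the repeat. In intron 1 of Dnmt3a, 4 loci of 46 to 637 bp held 413 to 467 reads over all libraries. In intron 21 of Dnmt3b, 4 loci of 121 to 342 bp held 1428 to 1460 reads, and the 22 bp locus of Dnmt3a held 17625. The loci differed more upstream of the RefSeq genes, with 0 to 58 reads at 10 Tet1 loci of 1 intron and 0 to 185 at the 16 of Trim28. Over genes in general, in 23514 introns with at least 2 LTR loci of 100 or more reads, the highest count was a median of 1.03 times the lowest, and in 94.1% the counts were within 2-fold. The values below are therefore given for the host gene and not for the repeat, and levels are compared between samples and not between genes. Dnmt1 had 4 distinct loci with 10295 reads, Dnmt3a 8 with 25873, Dnmt3b 7 with 7715, Setdb1 4 with 8537, and the single loci of Uhrf1 and Dnmt3l had 2930 and 15255. The 31 loci of Tet1 held 2748 reads, and 15 of the 31 lie inside its RefSeq gene. The 16 loci of Trim28 held 822 reads, and 0 of the 16 lie inside its RefSeq gene, which starts at position 13024152 of chromosome 7. All 16 are upstream of that start, in the long first intron of transcript Trim28-210, and 3 are shared with another gene. The leading one, an MRLTR33 repeat at chr7:13004128-13004441, held 185 reads. The values listed under Trim28 are therefore those of this upstream stretch and do not measure the main transcript.

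Values are deposited as CPM, which are read counts relative to library size, scaled with edgeR's trimmed mean method (TMM), and the value of 1 read could be recovered in every library. Library depth at LTR loci was 2824806 to 6304053 reads in F1 and 246520 to 8161548 in F3. In all, 4 F3 germline libraries held fewer than 2000000 reads: P5 TBT 5, P4 TBT 5, P4 TBT 9 and P5 DMSO 2. Over 10% of reads lay outside genes in 7 F3 germline libraries: P4 TBT 5 and 9, P5 DMSO 1 and 2, and P5 TBT 5, 8 and 9. In these 7 the share was 11.2% to 31.1%, and in the other F3 germline libraries it was 2.05% to 8.75%. The germline and Sertoli markers followed the sort. Of 11 germline marker genes tested, 11 were higher in P4 and in P5 than in P6 of F1 DMSO, and 8 of 8 Sertoli cell markers were lower. In the F1 P6 libraries alone, 8 germline markers reached the filter of a mean of at least 5 reads. The others were tested only because they were high in germline cells, so that their direction is a description. Markers of other cells were mixed, with 0 of 5 Leydig markers higher and 2 lower in both, 1 of 3 peritubular markers higher and 2 lower in both, and 1 of 4 endothelial markers higher and 2 lower in P4 and 2 higher and 1 lower in P5. Of 3 blood markers, 2 were lower in P4 and 1 in P5. Among all 14076 genes tested in the same way, 44.5% were higher and 30.6% lower in P4, and 46.4% and 25.1% in P5. Summed over the germline markers, F1 P6 libraries held 34.3 to 57.1 CPM and F1 germline libraries at least 8291. The labels do not say that libraries of a group came from separate animals, so p-values measure only the spread between these libraries. In bulk samples, fewer cells of a type and less RNA per cell cannot be told apart.

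**Figure D1:**
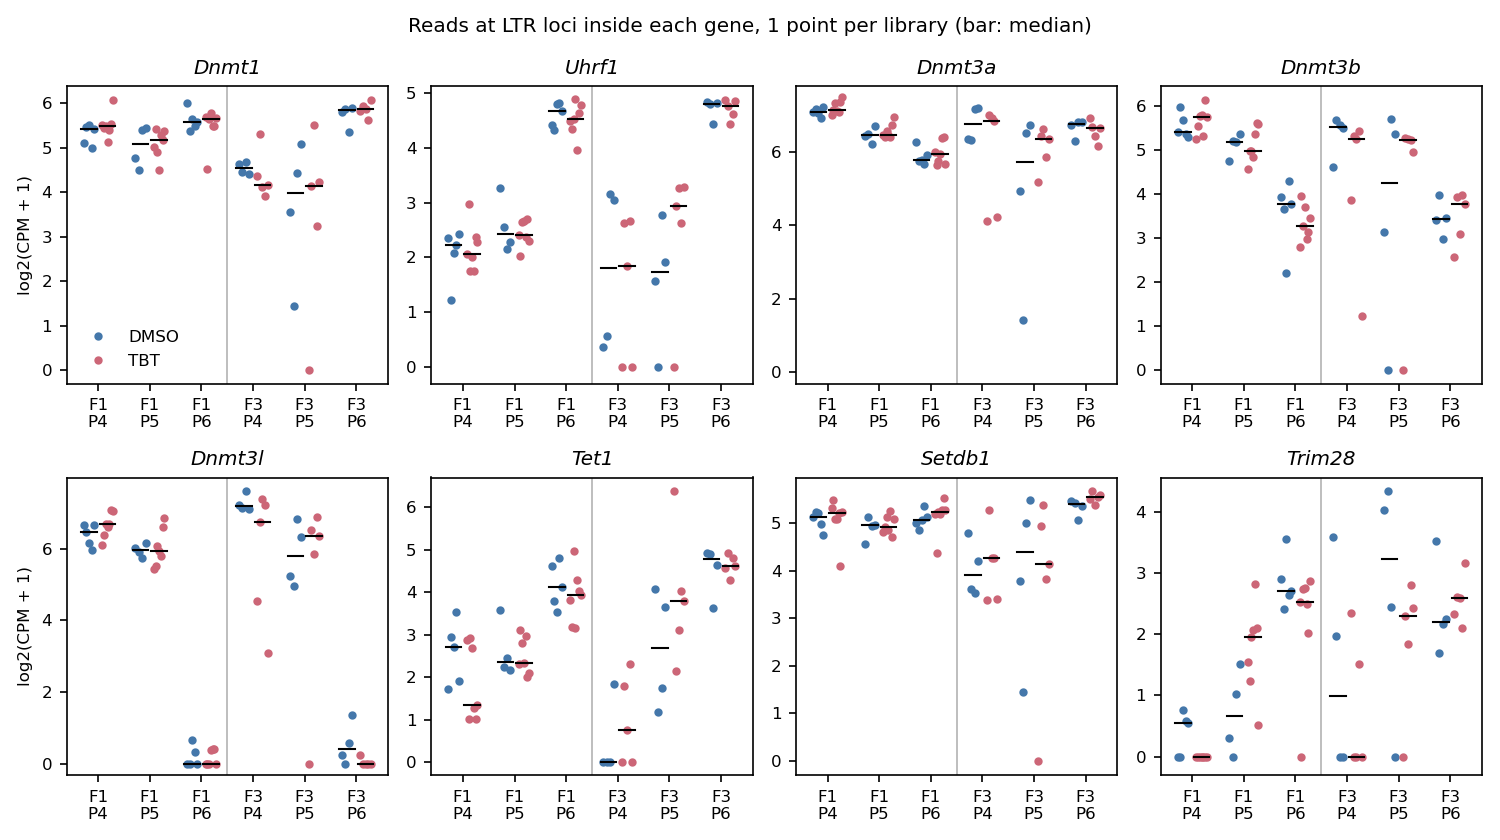
Levels of the 8 genes in all 62 RNA libraries, as log2(CPM + 1) on the vertical axis, with a scale of its own for each gene; each point is 1 library, blue for DMSO and red for TBT, and each bar is the median of its group. Dnmt3l lies at or near 0 in P6 and high in P4 and P5, Uhrf1 has the opposite order, and the F3 germline groups are the most widely spread.

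Germline and somatic cells were compared first, which asks how the silencing genes differ between the cells that write methylation anew and the cells around them. P4, P5 and P6 of 1 exposure and generation were fitted together with limma on log2(CPM + 1 read), after scaling the recovered reads of the generation together. Fold changes are on this scale, and a gene was called at an adjusted p (Benjamini-Hochberg over all genes tested) under 0.05. In F1 DMSO, Dnmt3a, Dnmt3b and Dnmt3l were higher and Uhrf1, Tet1 and Trim28 lower in P4 than in P6, while Dnmt1 and Setdb1 were not called. The P5 calls were those 3 higher and 3 lower genes as well. Among all 14076 genes tested, 44.5% were called higher and 30.6% lower in P4, and 46.4% and 25.1% in P5, so that most genes differed between these cells and the count of 6 of 8 is near that background. The median log2 fold change over the 8 genes was 0.05 in P4 and -0.11 in P5, against 0.45 and 0.56 over all genes tested.

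Among the genes that write new methylation, Dnmt3l had the widest gap. The 5 F1 DMSO P4 libraries held 60.9, 70.5, 86.7, 99.7 and 101 CPM, and the 4 P5 libraries 52.4, 58.6, 63.6 and 70.5. The 5 P6 libraries held 0, 0, 0, 0.26 and 0.6 CPM, which is 3 reads in all. Every germline library was thus far above every somatic library. Pooled over the group and scaled by library size, the P4 level was 585 times that of P6 (95% exact counting interval 200 to 2837) and the P5 level 450 times (154 to 2183). These intervals cover counting error only. The fitted log2 fold changes, which a pseudocount of 1 read holds down, were 7.90 ± 0.32 (SE, adjusted p = 1.31e-11) in P4 and 7.54 ± 0.34 (6.51e-11) in P5. Dnmt3l passed the filter on low values only through the germline libraries, and in P6 alone it was too low to be tested.

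Dnmt3b followed in size. In F1 DMSO, the P4 libraries held 38.4, 40.4, 41.3, 50.1 and 62.2 CPM and the P5 libraries 26.1, 35.5, 35.7 and 40.2. The P6 libraries held 3.6, 11.7, 12.7, 14.3 and 18.7. No P6 library reached the lowest P5 library. The log2 fold changes were 2.28 ± 0.35 (adjusted p = 2.6e-05) in P4 and 1.91 ± 0.37 (0.000272) in P5, or 4.84-fold and 3.77-fold.

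Dnmt3a summed over its 8 loci was also higher in germline cells. The P4 libraries of F1 DMSO held 120, 131, 134, 142 and 150 CPM, the P5 libraries 73.9, 85.6, 88.2 and 103, and the P6 libraries 49.9, 53, 54, 59.3 and 76.7. P4 and P6 did not overlap. The highest P6 library was above the lowest P5 library as deposited, and not after the generation was scaled together. The log2 fold change was 1.44 ± 0.13 (adjusted p = 1.4e-07) in P4 and 0.88 ± 0.14 (6.25e-05) in P5. This sum hides loci that moved in opposite directions, as described below, and a mean of log2 values over the loci gave -0.69 in P4 and -1.19 in P5.

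Among the genes that copy methylation, Uhrf1 was lower in germline cells and Dnmt1 was not called. Uhrf1 in F1 DMSO was 1.33, 3.23, 3.7, 4.13 and 4.35 CPM in P4 and 3.44, 3.87, 4.9 and 8.61 in P5. In P6 it was 18.9, 20.3, 24.6, 26.7 and 27, so that the groups did not overlap. The log2 fold changes were -2.58 ± 0.33 (adjusted p = 4.36e-06) in P4 and -1.91 ± 0.35 (0.00018) in P5, which is 5.99-fold and 3.77-fold lower. Dnmt1 was 31, 33.3, 42.1, 43.2 and 44.6 CPM in P4, 21.7, 26.3, 41.5 and 42.4 in P5, and 40.4, 43.9, 47.1, 49.2 and 63.4 in P6. Its differences were small, with a log2 fold change of -0.10 (±2 SE, -0.53 to 0.32, adjusted p = 0.671) in P4 and -0.31 (-0.76 to 0.14, adjusted p = 0.22) in P5. With the same total of reads per library the P5 value was -0.53 and was called (adjusted p = 0.0405).

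Uhrf1 moved with genes of the cell cycle, which were followed because Dnmt1 and Uhrf1 act at replication. Of 14 cell cycle genes tested, 11 were lower and 3 higher in P4 than in P6 of F1 DMSO, and the same numbers were called in P5. Among all genes 30.6% and 25.1% were called lower. The median log2 fold change of the 14 was -0.91 in P4 and -1.05 in P5, against 0.45 and 0.56 over all genes. Their summed level was 701 to 897 CPM in P4, 624 to 713 in P5 and 1735 to 2011 in P6. The part of the cell cycle in the Uhrf1 difference was not tested.

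Tet1 was lower in the germline cells of F1 DMSO, with a log2 fold change of -1.55 ± 0.44 (adjusted p = 0.00543) in P4 and -1.42 ± 0.47 (0.0142) in P5. Its level was 2.32 to 10.6 CPM in P4, 3.53 to 11 in P5 and 10.5 to 27 in P6, and the ranges touched. With 1 locus counted per intron the values were -0.69 and -0.48 and were no longer called (adjusted p = 0.134 and 0.333). Setdb1 was near level, with 25.8 to 36.8 CPM in P4, 22.5 to 33.8 in P5 and 27.8 to 40.3 in P6. Its log2 fold change was 0.21 (±2 SE, -0.14 to 0.55, adjusted p = 0.284) in P4 and 0.10 (-0.26 to 0.46, adjusted p = 0.637) in P5, and the P5 value was -0.05 with median-ratio scaling and -0.11 with the same total per library. The stretch upstream of Trim28 was lower, at 0 to 0.693 CPM in P4 and 0 to 1.85 in P5 against 4.29 to 10.8 in P6, with log2 fold changes of -3.49 ± 0.62 (adjusted p = 0.000111) and -2.85 ± 0.65 (0.00122). It held 7 reads in P4, 18 in P5 and 115 in P6 and passed the filter on low values only through P6. Calls of Dnmt3l and of this stretch, and counts that hold them, are therefore descriptions.

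The TBT groups of F1 gave like values for the germline and somatic cells. In P4, 3 genes were higher and 3 lower, against 43.8% and 31.9% of all 14524 genes tested, and in P5 3 were higher and 2 lower, against 50.4% and 25.9%. Dnmt3l was 8.23 ± 0.27 higher in P4 and 7.65 ± 0.27 in P5 on the log2 scale, with 3 reads in all 7 P6 libraries. Dnmt3b was higher by 2.63 ± 0.21 and 2.15 ± 0.21, and Dnmt3a by 1.47 ± 0.13 and 0.87 ± 0.13. Uhrf1 had log2 fold changes of -2.36 ± 0.24 and -1.98 ± 0.24, and Tet1 of -2.15 ± 0.42 and -1.26 ± 0.42. The adjusted p of these 10 values by limma was at most 0.0104. The gene missing from the P5 calls was the stretch upstream of Trim28 (-0.20 ± 0.58, adjusted p = 0.759), which was called in P4 (-3.62 ± 0.58) with 0 reads there. Dnmt1 (0.26 ± 0.19 in P4 and -0.11 ± 0.19 in P5) and Setdb1 (0.13 ± 0.20 and 0.08 ± 0.20) were not called.

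**Figure D2:**
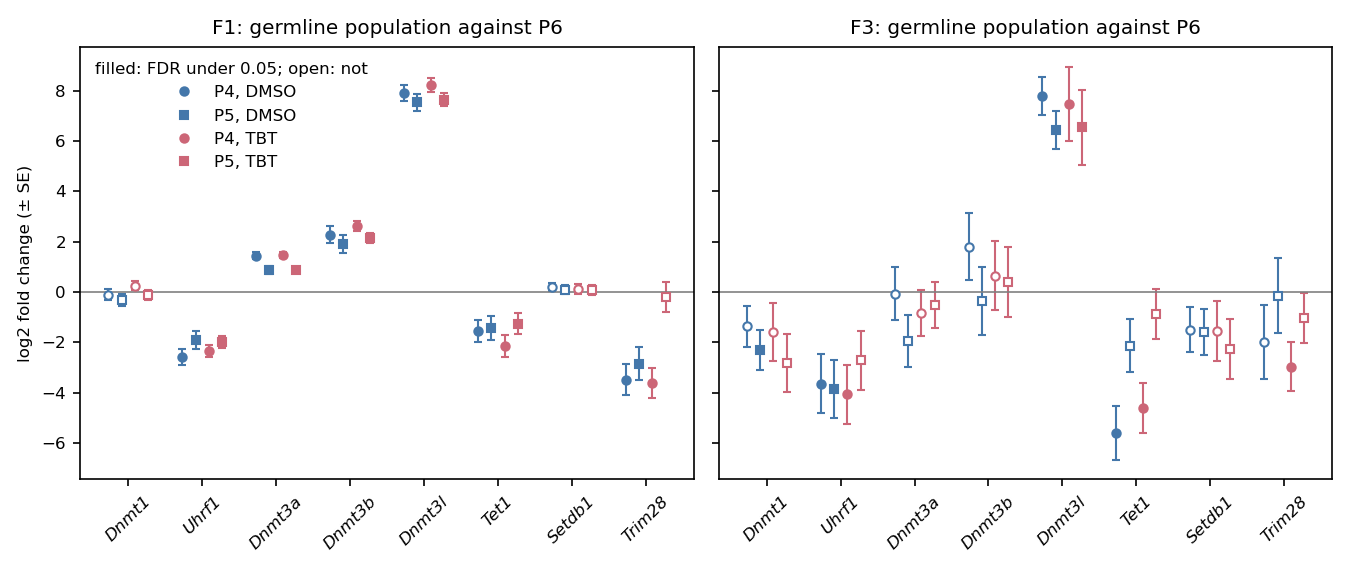
Log2 fold change of P4 (circles) and P5 (squares) against P6 for the 8 genes in F1 (left) and F3 (right), blue for DMSO and red for TBT, with error bars of 1 SE and filled points where the adjusted p was under 0.05. Dnmt3l is at 7.54 to 8.23 in F1 and 6.44 to 7.79 in F3, and the error bars of the other genes are wider in F3.

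In F3 the spread among germline libraries was wider and fewer of the 8 genes were called. In DMSO, 1 gene was higher and 2 lower in P4 than in P6, against 17% and 19.6% of 15116 genes, and 1 was higher and 2 lower in P5, against 17.4% and 15.2%. In TBT, 1 was higher and 3 lower in P4, against 12% and 18.1% of 14838 genes, and 1 was higher and 0 lower in P5, against 18% and 9.97%. At an unadjusted p under 0.05, 3 genes passed in that last comparison. The gene that was higher in all 4 was Dnmt3l. Its DMSO P4 libraries held 136, 140, 147 and 193 CPM, its P5 libraries 30, 36.9, 79.4 and 112, and its P6 libraries 0, 0.198, 0.496 and 1.58. The log2 fold changes were 7.79 ± 0.75 (adjusted p = 1.19e-05) in P4 and 6.44 ± 0.75 (7.41e-05) in P5.

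The few Dnmt3l reads in F3 P6 went with germline markers. The P6 DMSO libraries 3 and 4, with 2 and 8 reads of Dnmt3l, had 213 and 225 CPM summed over the germline markers. In the other F3 P6 libraries that sum was 23.6 to 38.5 CPM, with at most 1 Dnmt3l read. The part of germline RNA in these reads was not tested. In F3 TBT, 1 P6 read was counted in all 5 libraries, and Dnmt3l was 7.48 ± 1.48 higher in P4 (adjusted p = 0.00127) and 6.55 ± 1.48 in P5 (0.0042). The P5 TBT library 5, the shallowest, held 0 reads of Dnmt3l, where 3 reads would be 2.87 CPM.

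Uhrf1 was called lower in 3 of the 4 F3 comparisons. Its DMSO libraries held 0.283, 0.489, 7.24 and 7.87 CPM in P4, 0, 1.97, 2.77 and 5.81 in P5, and 20.6, 26.8, 27 and 27.6 in P6. All 8 germline libraries were below all 4 somatic libraries. The log2 fold change was -3.65 ± 1.17 (adjusted p = 0.0261) in P4, -3.86 ± 1.17 (0.024) in P5, -4.07 ± 1.17 (0.015) in TBT P4 and -2.71 ± 1.17 (0.0924) in TBT P5. Both DMSO calls were lost with the quasi-likelihood test (-2.76 and -3.20, adjusted p = 0.0952 and 0.0700), and TBT P5 was called with median-ratio scaling (adjusted p = 0.00935). The DMSO P5 call was also lost without the libraries with over 10% of reads outside genes (-2.51, adjusted p = 0.113), while TBT P5 was called (-1.60, adjusted p = 0.00147). Of the 14 cell cycle genes, 6 were called lower in DMSO P4, 9 in DMSO P5, 6 in TBT P4 and 4 in TBT P5, against 19.6%, 15.2%, 18.1% and 9.97% of all genes, and 0 were called higher. Dnmt1 was called lower in DMSO P5 (-2.30 ± 0.81, adjusted p = 0.0449). That call was lost without the libraries with over 10% of reads outside genes (-0.92, adjusted p = 0.072) and with the quasi-likelihood and likelihood ratio tests (adjusted p = 0.120 and 0.0731). With median-ratio scaling Dnmt1 was also called lower in DMSO P4, TBT P4 and TBT P5 (adjusted p = 0.00813, 0.0375 and 0.00920), and with the same total per library in TBT P5 (0.0470). Without the libraries with over 10% of reads outside genes it was called lower in both P4 comparisons (adjusted p = 0.00336 in DMSO and 0.00898 in TBT).

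Tet1 was lower in the P4 cells of F3. Its DMSO P4 libraries held 0, 0, 0 and 2.57 CPM and its P6 libraries 11.4, 24, 29 and 29.1, with a log2 fold change of -5.61 ± 1.06 (adjusted p = 0.00131). DMSO P4 held 11 reads in all, and Tet1 passed the filter on low values there only through the groups where it was higher, so that this call is a description too. The 11 reads lay upstream of the RefSeq gene of Tet1. In TBT P4 the log2 fold change was -4.60 ± 1.00 (0.00241). The P5 values were -2.14 ± 1.06 (adjusted p = 0.129) in DMSO, called with median-ratio scaling (-2.94, adjusted p = 0.0185), and -0.86 ± 1.00 (0.546) in TBT, where library 5 alone held 82.3 CPM. The F3 P5 values of Tet1 mix loci inside and upstream of its RefSeq gene. In DMSO P5 the loci inside held 0, 0, 0 and 6 CPM and those upstream 1.29, 2.35, 5.54 and 15.8, while in DMSO P6 the loci upstream were at 0 in all 4 libraries. The stretch upstream of Trim28 was called lower in TBT P4 (-2.96 ± 0.98, adjusted p = 0.0308), and not with the quasi-likelihood test (-2.37, adjusted p = 0.118). Setdb1 was called in none of the 4 comparisons, with log2 fold changes between -1.49 and -2.26, but was called lower in all 4 with median-ratio scaling (adjusted p = 0.0105, 0.0337, 0.0445 and 0.0215). Without the libraries with over 10% of reads outside genes it was called lower in both P4 comparisons (adjusted p = 0.00902 in DMSO and 0.0152 in TBT).

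Dnmt3b and Dnmt3a were not called in F3 with every library by limma on the TMM scale. The DMSO P4 libraries of Dnmt3b held 23.7, 44.6, 46.2 and 50.8 CPM and its P6 libraries 6.95, 9.72, 10 and 14.9, which did not overlap (1.80 ± 1.34, adjusted p = 0.313). Its P5 libraries 3 and 4 held 51.6 and 40.2 CPM and libraries 1 and 2, with the most reads outside genes, 7.88 and 0 (-0.36 ± 1.34, adjusted p = 0.842). Without the libraries with over 10% of reads outside genes, which were left out only once their values were known, Dnmt3b was higher in all 4 comparisons. The log2 fold changes were 1.80 in DMSO P4, 2.24 in DMSO P5, 2.12 in TBT P4 and 1.99 in TBT P5, with an adjusted p of 0.00535 at most. DMSO P5 then rested on libraries 3 and 4 alone, TBT P5 on libraries 6 and 7 and TBT P4 on libraries 6, 7 and 8. Dnmt3a then had log2 fold changes of -0.06, 0.04, 0.53 and 0.06, of which TBT P4 was called (adjusted p = 0.0184). The counts of the 8 genes became 2 higher and 4 lower, 2 and 0, 3 and 5, and 2 and 2, in the same order. Of all genes, 26.3% and 31% in DMSO P4, 26.1% and 11.4% in DMSO P5, 45.1% and 30.7% in TBT P4 and 43.7% and 23.9% in TBT P5 were then called higher and lower.

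The scale chosen for F3 mattered. With median-ratio size factors in place of TMM, the median log2 fold change of all genes moved from -0.12 to -1.61 in DMSO P4, from -0.32 to -1.25 in DMSO P5, from -0.78 to -2.22 in TBT P4 and from -0.49 to -1.72 in TBT P5. The share of higher genes among all calls fell from 46.4% to 20.7%, from 53.4% to 33.3%, from 39.9% to 20.6% and from 64.4% to 34.6%. Dnmt3l stayed called higher in all 4 under both scales, and Dnmt3b, not called under either, turned from 0.65 to -0.65 in TBT P4 and from 0.41 to -0.84 in TBT P5. Dnmt3a became called lower in DMSO P5 (-1.94 to -2.74, adjusted p = 0.0376) and in TBT P4 (-0.83 to -2.17, adjusted p = 0.0239), against 0.53 in TBT P4 without the libraries with over 10% of reads outside genes. In F1 the same change moved the median by -0.15 to -0.18, and the share of higher genes by less than 10 percentage points.

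Dnmt3a was followed locus by locus, since RefSeq gives it 3 start sites, at positions 3806980, 3807160 and 3891744 of chromosome 12. Germ cells and embryonic stem cells are known to use a start inside the gene that gives a shorter protein, Dnmt3a2. Of the 8 loci, 7 lie before the third start and the 22 bp MT2B locus lies after it. The 250 bases before the first and before the third start on GRCm38, plus strand, are shown with CpG sites in capitals because the reads on either side of the third start moved apart.
Dnmt3a before start 1: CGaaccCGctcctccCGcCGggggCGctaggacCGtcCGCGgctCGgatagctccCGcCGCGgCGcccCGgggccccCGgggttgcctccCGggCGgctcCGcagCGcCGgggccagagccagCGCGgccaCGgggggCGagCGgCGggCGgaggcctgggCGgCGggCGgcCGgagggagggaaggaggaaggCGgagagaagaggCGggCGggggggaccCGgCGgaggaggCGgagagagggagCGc
Dnmt3a before start 3: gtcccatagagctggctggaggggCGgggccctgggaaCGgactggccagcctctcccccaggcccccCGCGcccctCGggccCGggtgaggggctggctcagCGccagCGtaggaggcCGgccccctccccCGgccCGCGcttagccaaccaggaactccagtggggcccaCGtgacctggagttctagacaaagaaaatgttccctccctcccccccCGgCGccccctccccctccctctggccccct
The stretch at chr12:3806730-3806979 holds 38 CpG sites and the stretch at chr12:3891494-3891743 holds 15. Over the 250 bases before 32851 RefSeq starts the median was 6, and 37.8% held 10 or more.

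In germline cells most Dnmt3a reads lay after the third start. The last locus took 80.1% to 86.5% of the Dnmt3a reads in the 5 F1 DMSO libraries of P4 and 80.7% to 90.4% in the 4 of P5. In the 5 P6 libraries it took 21.1% to 30.6%. In F3 DMSO the shares were 88.3% to 100% in P4, 85.8% to 100% in P5 and 19.5% to 25.1% in P6. Over all 62 libraries of both exposures and generations, the germline libraries ranged from 78.3% to 100% and the P6 libraries from 15.7% to 30.6%, with no overlap. The shares of 100% rest on 283 reads in F3 P4 DMSO library 1, and on 60 and 4 reads in P5 DMSO libraries 1 and 2. The share is within a library and so does not depend on how libraries were scaled. It does depend on the loci counted. The other loci include 4 of intron 1 with 413 to 467 reads each and 2 of intron 3 with 2157 and 2164. Such near-identical loci of 1 intron were each counted, which lowers the share, and a share with 1 locus per intron was not computed. The split at the third start was chosen after the values were seen, and the shares are given with no test.

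**Figure D3:**
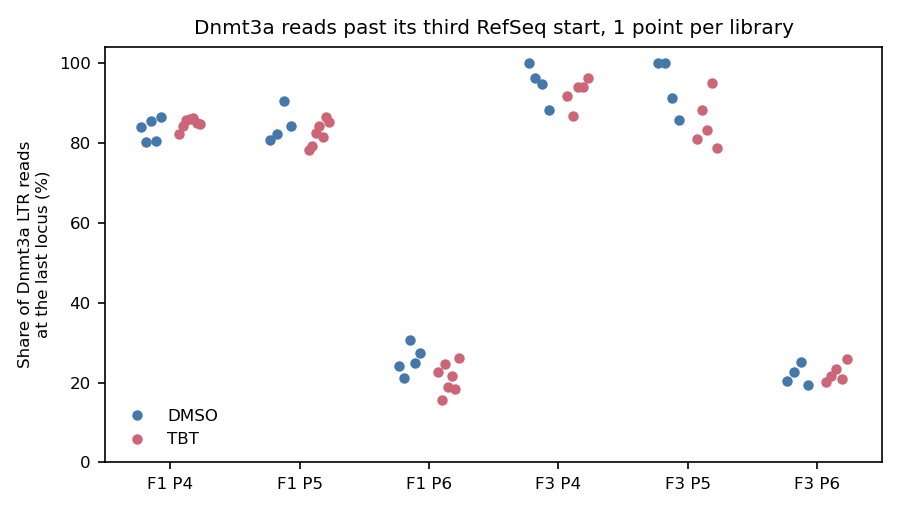
Share of the Dnmt3a reads of each RNA library that lay at the last of its 8 LTR loci, past the third RefSeq start, in percent, for P4, P5 and P6 of F1 and F3; each point is 1 library, blue for DMSO and red for TBT. All germline libraries are at or above 78.3% and all P6 libraries at or below 30.6%.

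The single loci showed both directions, tested as loci against all 103981 LTR loci of F1 DMSO. After the third start, the MT2B locus was higher in germline cells by 3.14 ± 0.13 in P4 (limma, adjusted p = 3.55e-15) and by 2.59 ± 0.14 in P5 (4.84e-13). Before it, the MT2B locus at chr12:3847595-3847641 had log2 fold changes of -0.60 ± 0.24 in P4 (0.0267) and -1.32 ± 0.25 in P5 (7.62e-05). The RLTR31D_MM locus at chr12:3853391-3853461, in intron 3, had -0.46 ± 0.22 (0.0655) and -1.16 ± 0.24 (0.000186). Among the 23 loci of the 8 genes that were tested, 10 were called higher and 3 lower in P4, against 41.6% and 34.4% of all loci, and 9 and 6 in P5, against 40.6% and 29.4%.

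In F3 DMSO the 7 loci before the third start were called lower in P4, with log2 fold changes from -3.45 to -4.40, and in P5, from -3.04 to -4.64. The 7 together held 109 reads in P4, 121 in P5 and 1476 in P6. The 4 in intron 1 were at a mean of 0.242 CPM in P4 and 0.288 to 0.635 in P5 and passed the filter on low values only through P6, so that their calls, and the counts of loci that hold them, are descriptions. The locus after it was not called, at 2.04 ± 0.95 in P4 (adjusted p = 0.102) and 0.16 ± 0.95 in P5 (0.901). Of 26 loci tested, 1 was called higher and 10 lower in both P4 and P5, against 13.5% and 25.9% of all 115876 loci in P4 and 11.4% and 24.9% in P5. The locus called higher was that of Dnmt3l.

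**Figure D4:**
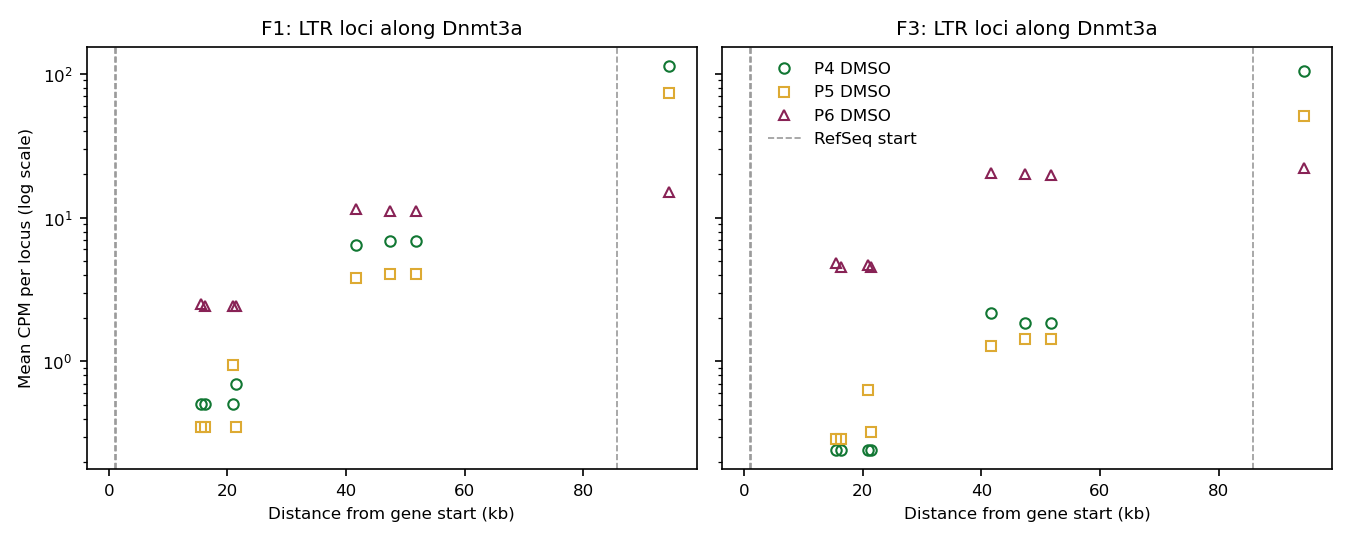
Mean level of each of the 8 Dnmt3a LTR loci in the DMSO groups (CPM, log scale) against its distance from the GENCODE gene start in kb, for F1 (left) and F3 (right), with dashed lines at the RefSeq starts. P6 (triangles) is above P4 (circles) and P5 (squares) at the 7 loci before the third start and below both at the locus after it.

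P5 and P4 were compared within the germline table, which asks whether the methylation genes separate the germline cells that side scatter splits. In F1 DMSO, 1 of the 7 genes tested was called, Dnmt3a, which was lower in P5 by 0.63 on the log2 scale (SE 0.13, adjusted p = 0.0144), with no overlap of the 4 P5 and 5 P4 libraries. The background was 6.73% of genes called higher and 4.75% lower. Dnmt3l (-0.43 ± 0.18, adjusted p = 0.153) and Dnmt3b (-0.43 ± 0.20, adjusted p = 0.195) had values of the same sign that were not called. Dnmt1 (-0.28 ± 0.24), Setdb1 (-0.17 ± 0.20), Uhrf1 (0.61 ± 0.46) and Tet1 (0.07 ± 0.52) were not called either. With the replicate number as a block, Dnmt3l was called (-0.54, adjusted p = 0.0487 by limma). The labels do not say whether a number stands for 1 animal. In F1 TBT, 3 genes were called lower and 1 higher, against 12.8% lower and 23.2% higher among all 14857 genes. Dnmt3a had a log2 fold change of -0.65 ± 0.12 (adjusted p = 0.000619), with 83 to 123 CPM in P5 (median 87.8) and 126 to 179 in P4 (median 141) and no overlap. Dnmt3l had -0.64 ± 0.22 (0.0316) and Dnmt3b -0.53 ± 0.19 (0.0389), and in both the groups overlapped. Dnmt1 (-0.42 ± 0.17), Setdb1 (-0.10 ± 0.19), Uhrf1 (0.33 ± 0.28) and Tet1 (0.85 ± 0.46) were not called. With the replicate number as a block, Dnmt1 was called (-0.42, adjusted p = 0.0213 by limma).

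The calls of Dnmt3l and Dnmt3b in F1 TBT were lost with the same total per library (adjusted p = 0.0602 and 0.105), with median-ratio scaling (0.0800 and 0.116) and with the quasi-likelihood test of edgeR (0.0536 and 0.0513), while Dnmt3a stayed called in both exposures under all 3. With a mean of log2 over its loci Dnmt3a was called in neither (-0.55 in DMSO and -0.41 in TBT, adjusted p = 0.373 and 0.109). These scales moved the median of all genes by 0.12 to 0.17 upward in P5, and the share of higher genes among all calls from 58.6% to 80% and 81% in DMSO and from 64.4% to 80.9% and 79% in TBT. The fourth call in F1 TBT was the stretch upstream of Trim28, which was at 0 in all 7 P4 libraries and at 0.435 to 6.05 CPM in P5, and which passed the filter only through P5. With 97 reads in P5 and a floor of 3 reads over the P4 group, it was at least 29.2-fold higher in P5.

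Germline and somatic markers also differed between P5 and P4. In F1 DMSO, 4 of 11 germline markers were lower and 1 higher in P5, and 2 of 8 Sertoli markers were higher. In F1 TBT, 8 of 11 germline markers were lower and 1 higher, and 4 of 7 Sertoli markers were higher. In both exposures 2 of 4 endothelial markers were higher in P5 and 0 Leydig and 0 blood markers were called, and 1 of 3 peritubular markers was lower in TBT. Over all genes 6.73% were called higher and 4.75% lower in DMSO, and 23.2% and 12.8% in TBT. The Sertoli markers summed to 146 to 372 CPM in DMSO P5 and 115 to 260 in DMSO P4. Reads outside genes took 3.83% to 7.34% of F1 P5 libraries and 1.83% to 2.51% of F1 P4 libraries. Their part in the differences of Dnmt3a, Dnmt3b and Dnmt3l was not tested. In F3, limma called 0 of the 8 genes between P5 and P4 in DMSO and 0 in TBT, against 0% of all genes in both, with 2 and 1 genes at an unadjusted p under 0.05. In DMSO these were Dnmt3l (-1.44 ± 0.58, adjusted p = 0.277 by limma, no overlap) and Tet1 (3.46 ± 1.37, adjusted p = 0.27), and in TBT Tet1 (3.84 ± 1.29, adjusted p = 0.658). Of the Tet1 reads in P5, 76 lay upstream of its RefSeq gene and 26 inside it in DMSO, and 45 upstream and 185 inside in TBT, 86 of them in library 5.

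TBT and DMSO were compared within each population, which is the comparison the study was built for. Of the 8 genes, 7, 8 and 7 were high enough to be tested in F1 P4, P5 and P6, and 7, 8 and 7 in F3. None of them was called by limma in any of the 6 populations. Among all genes the calls were 0%, 0% and 0.0256% in F1 P4, P5 and P6 and 0%, 0% and 0.00834% in F3, so that almost no gene of any kind was called. Without adjustment 1 value passed the threshold, the stretch upstream of Trim28 in F1 P5 (1.86 ± 0.74, adjusted p = 0.525 by limma), above the DMSO median in 6 of 7 TBT libraries. The quasi-likelihood and likelihood ratio tests of edgeR on the recovered reads called 0 of the tested genes in all 6 populations as well.

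The intervals of the TBT effect were narrow in F1 for the genes with many reads. For Dnmt3a the log2 fold change was 0.13 (±2 SE, -0.10 to 0.36) in F1 P4, 0.11 (-0.19 to 0.41) in P5 and 0.09 (-0.25 to 0.43) in P6. For Dnmt3l it was 0.28 (-0.10 to 0.65) in P4 and 0.07 (-0.43 to 0.57) in P5. For Dnmt1 it was 0.22 (-0.13 to 0.56), 0.07 (-0.40 to 0.54) and -0.15 (-0.57 to 0.27). Changes of 2-fold in either direction lie outside these intervals, which treat the libraries as independent. Several F1 germline libraries of an exposure share the first part of their number, and the labels do not say what it stands for.

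The other genes had intervals of differing width. For Setdb1 the F1 values were 0.00 (-0.44 to 0.45), 0.07 (-0.29 to 0.43) and 0.07 (-0.30 to 0.44). For Dnmt3b they were 0.11 (-0.26 to 0.48), 0.01 (-0.44 to 0.46) and -0.25 (-0.96 to 0.46). For Uhrf1 they were 0.14 (-0.63 to 0.92), -0.14 (-0.80 to 0.53) and -0.09 (-0.46 to 0.28), and for Tet1 in P4 -0.87 (-2.02 to 0.28). In F3 P6 the intervals of Dnmt1, Uhrf1, Dnmt3a and Setdb1 were as narrow, at -0.15 to 0.43, -0.31 to 0.29, -0.43 to 0.22 and -0.03 to 0.47.

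In F3 germline cells the intervals were wider. The interval of Dnmt3l was -3.36 to 0.35 in P4 and -4.31 to 2.18 in P5, and that of Dnmt3a was -2.61 to 0.71 in P4 and -1.23 to 3.81 in P5. The Dnmt3l libraries of F3 P4 TBT held 7.47, 22.3, 105, 148 and 166 CPM, and the 2 low values were those of libraries 9 and 5, which also had over 10% of reads outside genes. For a difference of the TBT effect between P5 and P4, limma's test of the interaction called 0 genes in F1 and 0 in F3. The share over all genes was 0% in both. At an unadjusted p under 0.05, 0 of the 7 genes tested in F1 and 0 of the 8 in F3 passed. Dnmt3a, for example, had an interaction of -0.02 (-0.37 to 0.33) in F1 and 2.25 (-0.89 to 5.39) in F3.

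**Figure D5:**
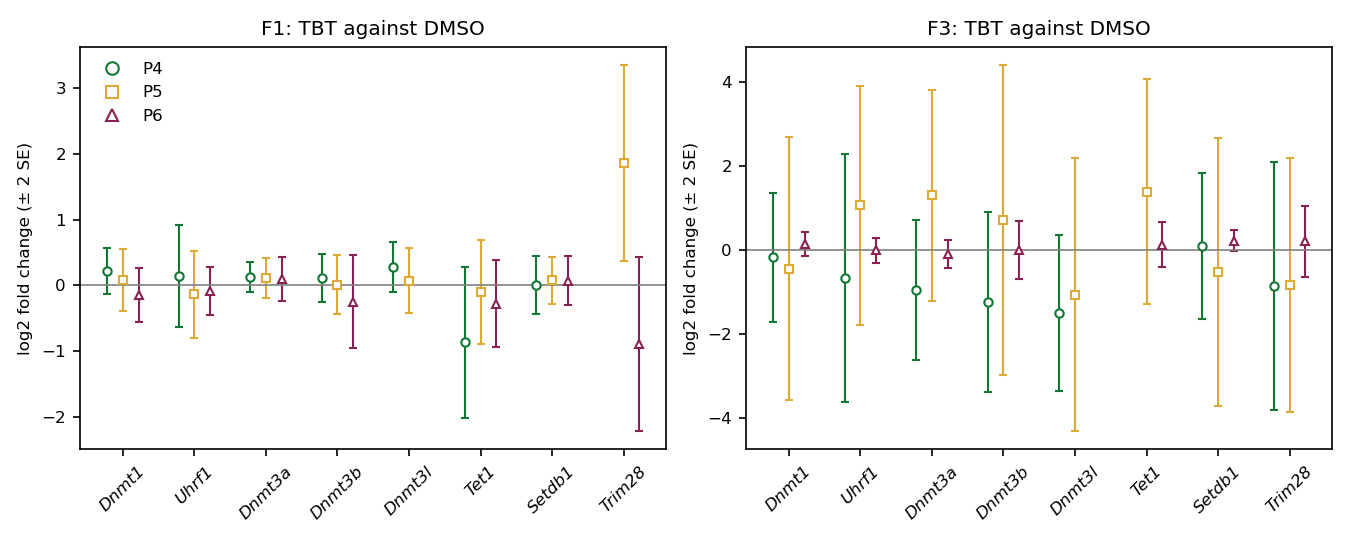
Log2 fold change of TBT against DMSO for the 8 genes in P4 (circles), P5 (squares) and P6 (triangles) of F1 (left) and F3 (right), with error bars of 2 SE; genes too low to be tested in a population have no point, and the 2 panels differ in scale. For Dnmt3a the F1 bars reach from -0.25 to 0.43 over the 3 populations and the F3 P5 bar from -1.23 to 3.81.

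Single loci gave the same picture. Of the loci inside the 8 genes, 21, 22 and 24 were tested in F1 P4, P5 and P6 and 21, 24 and 36 in F3, and limma called 0 in each. The background was 0%, 0.0106% and 0.00341% of all loci in F1 and 0%, 0% and 0.0343% in F3. Without adjustment 4 loci passed the threshold. These were the Dnmt1 locus RLTR51A_Mm in F1 P6 (-0.58 ± 0.26), the Tet1 locus ORR1B1 in F3 P5 (3.18 ± 1.34) and the Setdb1 loci ORR1D1 (0.37 ± 0.17) and RLTR20C1_MM (0.43 ± 0.19) in F3 P6, with an adjusted p by limma of 0.586 or more. The likelihood ratio test of edgeR called 2 loci in F3 P5, the ORR1B1 locus of Tet1 (log2 fold change 5.94, adjusted p = 0.0223) and the MLT1E2 locus upstream of Trim28 (-7.15, adjusted p = 0.0266). The quasi-likelihood test called neither (adjusted p = 0.0999 and 0.103). At the Tet1 locus, 86 of the TBT reads came from library 5, at 82.3 CPM, and the other 4 TBT libraries were at 0.491 to 3.22 CPM. At the MLT1E2 locus, all 45 reads of P5 DMSO came from library 2, at 19.3 CPM, which has over 10% of reads outside genes, and the other 8 libraries were at 0.

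F1 and F3 stand in tables that were normalised separately, so their levels are set side by side with no test. Dnmt3l in DMSO P4 had a median of 86.7 CPM in F1 and 143 in F3. Dnmt1 in DMSO P4 had medians of 42.1 and 22.5 CPM, and Setdb1 34.1 and 14.3. The loci of Dnmt1 differed in this, with means of 6.80 and 7.88 CPM at the MLT1D locus, 13.0 and 2.53 at the MT2B locus and 10.3 and 4.02 at the ORR1F locus. In P6 the medians of Dnmt1 were 47.1 and 56.6 CPM and those of Uhrf1 24.6 and 26.9. Generation and table cannot be told apart.

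The patterns of the 8 genes over the 12 RNA groups were compared as mean log2 levels, as a description of 12 points that share libraries and scale. Dnmt1 and Setdb1 were the most alike pair (r = 0.971), and Uhrf1 and Dnmt3l the most opposite (r = -0.929). Among 11953 protein-coding genes, the pattern of Dnmt3l was closest to Arl14epl (r = 0.999) and Slc25a31 (0.998), the second an ADP/ATP carrier of the male germline. That of Uhrf1 had Add1 (0.996) among its closest, and that of Dnmt1 had Gsn (0.985). The pattern of Dnmt3b was closest to Mtmr14 (0.992) and Hectd2 (0.987), and that of Dnmt3a to Fermt3 (0.961) and Dicer1 (0.958). Setdb1 was closest to Ube3c (0.982) and Usp4 (0.981), Tet1 to Zkscan3 (0.976) and Bicral (0.974), and Trim28 to A630089N07Rik (0.953) and Tmbim6 (0.952).

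Other genes of methylation and heterochromatin were read in the same way from a list of 50, of which 42 had an LTR inside and were tested. In F1 DMSO, 17 were higher and 17 lower in P4 than in P6, and 18 and 15 in P5, with medians of 0.15 and 0.03. Over all genes 44.5% and 30.6% were called in P4 and 46.4% and 25.1% in P5. Morc1, a germline gene needed for transposon silencing, was at 1668 to 2686 CPM in P5 and 0 to 2.18 in P6 (log2 fold change 11.45 ± 0.55, adjusted p = 1.37e-10 by limma). As Morc1 was at or near 0 in P6, its call is a description, like that of Dnmt3l. Kdm1b, a histone H3 lysine 4 demethylase, was 5.70 ± 0.19 higher and Mphosph8, a subunit of the HUSH silencing complex, 2.95 ± 0.14 higher on the log2 scale. Mbd2, a reader of methylated DNA, had -2.94 ± 0.35, the imprinting factor Zfp57 -2.74 ± 0.61, and Tdg, a glycosylase that removes oxidised methylcytosine, -2.10 ± 0.25. The adjusted p of these 5 was at most 0.000983.

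In F3 DMSO P5, 4 of the 42 were higher and 10 lower than in P6, with a median of -0.94, against 17.4% and 15.2% of all genes. Morc1 (7.54 ± 1.35), Mphosph8 (3.55 ± 0.39) and Eed (1.61 ± 0.54), a subunit of Polycomb repressive complex PRC2, were higher. Mbd2 (-6.73 ± 1.26), the histone chaperone subunit Chaf1b (-4.66 ± 1.30) and Tdg (-4.22 ± 1.28) were lower, each with an adjusted p of at most 0.0376. Between P5 and P4 of F1 DMSO, 0 were higher and 8 lower, against 6.73% and 4.75% of all genes, with Ezh2 (-0.59 ± 0.16), Hdac1 (-0.58 ± 0.14) and Kdm1a (-0.57 ± 0.11) of the largest change among those whose groups did not overlap. In the 6 TBT comparisons 0 of the genes on this list were called by limma. The median log2 fold change of the list was between -0.06 and 0.01 in F1, against -0.01 to 0.06 over all genes. In F3 P4, P5 and P6 it was -0.44, -0.21 and -0.04, against -0.57, 0.01 and 0.01 over all genes.

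The MBD counts of P6 covered the 8 genes thinly, since the deposited tables hold chosen windows of 100 bp. Inside the genes and 2000 bases upstream there were 16 windows in F1, of which 6 were tested, and 26 in F3, of which 9 were tested. By edgeR's quasi-likelihood test, TBT and DMSO differed in 0 windows in F1 and in 0 in F3, against 0.00868% and 0% of all windows, and 0 passed at an unadjusted p under 0.05 in either. DESeq2 also called 0 in both. Sample totals were 701493 to 1913353 counts in F1 and 1105120 to 1556376 in F3.

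The CpG-dense windows at the Dnmt3a starts held few counts in F3. The windows at chr12:3806601-3806700, chr12:3806701-3806800 and chr12:3806801-3806900, with 11, 20 and 16 CpG sites, held 0 to 2 counts per sample, and the last pair of them overlaps the stretch before the first start printed above. The windows at chr12:3891901-3892000 and chr12:3892001-3892100, with 6 and 3 CpG sites just past the third start, held 0 to 2 and 0 to 3. By contrast, the window at chr12:3849601-3849700, with 5 CpG sites between these starts, held 31 to 40 counts in the 5 DMSO samples and 29 to 53 in the 7 TBT samples. The window at chr17:56303201-56303300, just before the Uhrf1 gene start and with 8 CpG sites, held 0 to 2 counts, and a window of 7 CpG sites inside the RefSeq gene of Trim28 held 0 to 1. These windows were too low to be tested, and 0 counts in a sample allow up to 3. In the F3 DMSO samples the window nearest to the gene start held 18 to 33 counts for Dnmt1, 23138 bases past it, 4 to 8 for Dnmt3l, 5504 bases past it, and 5 to 11 for Setdb1, 18152 bases past it. In F1 it held 1 to 2 for Dnmt3l at 3704 bases, 2 to 6 for Setdb1 at 852 bases and 6 to 10 for Tet1 at 10046 bases.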

How the data were processed

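RNA of sorted P4, P5 and P6 cells (62 libraries) and MBD-enriched DNA of P6 (19 samples) were analysed. Per the study's methods, the authors trimmed reads with Trim Galore, aligned them to GRCm38 with STAR, counted LTR loci with a modified ERVmap and scaled them by TMM with edgeR. The deposited RNA signal is CPM on that scale per LTR locus, in 4 tables normalised separately. The MBD tables deposited by the authors hold raw counts in windows of 100 bp.

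From the RNA signal whole reads were recovered, with 100% of values above 0 within 0.01 of a whole number. Distinct LTR loci wholly inside a GENCODE vM21 gene body were summed per gene. Groups were compared with limma 3.58.1 (trended prior variance, two-sided) on log2(CPM + 1 read), for features with a mean of at least 5 reads, with Benjamini-Hochberg adjustment over all features tested and calls under 0.05. P4 and P5 were compared with P6 on recovered reads scaled together by TMM. MBD counts were tested with edgeR 4.0.16 (quasi-likelihood, TMM), with DESeq2 1.42.0 as an alternative, in R 4.3.3. Tests were checked on simulated data, with the same spread in the F1 and F3 RNA comparisons. The wider spread of the F3 germline libraries was not simulated, so that the check does not cover it. No 2 libraries of a group agreed within counting noise (lowest chi-square per degree of freedom 1.61). Depth at LTR loci was 246520 to 8161548 reads, so that 3 reads are 0.386 to 2.87 CPM.

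The rule for names takes all 8 genes and their leading loci. Values of genes that are not named in a comparison were not called there. Of the wider list the 3 higher and 3 lower genes of largest change without overlap are named, with the 2 genes most alike in pattern and the MBD window nearest each start. For Dnmt1 and Uhrf1, 1 of the 2 genes alike in pattern is not reported here. The dense windows at Dnmt3a, Uhrf1 and Trim28 were added after their values were seen. The genes and lists were chosen with earlier results of these data known. Alternatives covered filters, pseudocounts, scaling, tests, the loci counted, the replicate block and leaving out libraries. Leaving out libraries under 2000000 reads, those with over 10% of reads outside genes, or F1 P6 TBT libraries 7 and 8, counting 1 locus per intron, and testing single loci between cell populations were chosen after seeing the data.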

Additional observations from a re-analysis of the deposited data

Results flagged for a closer look

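A library stood apart from the rest of its group by Dixon's test in 13 of 119 tests of 1 gene, or 1 MBD window, in 1 group, where chance alone gives about 1 in 20. Dnmt1 was at 66.6 CPM in F1 P4 TBT library 47-5 (others 34.2 to 45.6), at 22 in F1 P6 TBT library 11 (43.8 to 54.4), at 38.5 in F3 P4 TBT library 6 (14.2 to 19.6) and at 39.7 in F3 P6 DMSO library 3 (55.1 to 58.3). Uhrf1 was at 6.85 CPM in F1 P4 TBT library 45-4 (2.37 to 4.16) and at 20.6 in F3 P6 DMSO library 3 (26.8 to 27.6). Setdb1 was at 16.1 CPM in F1 P4 TBT library 47-4 (32.7 to 43.5) and at 19.7 in F1 P6 TBT library 11 (35.5 to 44.8). Libraries 11 of F1 P6 TBT and 3 of F3 P6 DMSO were thus each apart for a pair of genes.

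Tet1 was at 11 CPM in F1 P5 DMSO library 43-4 (3.53 to 4.48), at 2.57 in F3 P4 DMSO library 4 where the other libraries were at 0, and at 82.3 in F3 P5 TBT library 5 (3.44 to 15.2). That last library, with 246520 reads, was also apart for Dnmt3b, at 0 CPM against 30.2 to 38.1. Dnmt3l was at 0.184 CPM in F3 P6 TBT library 5, which is 1 read, and at 0 in the others.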

How the results depend on the processing

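Of 7304 single log2 fold changes under an alternative, 7178 stayed on their side of the threshold (uncalled values that changed sign are among them), 63 fell below it, 57 rose past it and 6 turned; of 713 counts, 680 stayed within 1.5-fold. The TBT counts were 0 under 366 of 367 alternatives. The exception was 2 loci in F3 P5 with the edgeR likelihood ratio test. With a mean of log2 over loci, Dnmt3a against P6 turned to -0.69 and -1.19 in F1 DMSO P4 and P5 and to -0.91 and -1.28 in F1 TBT, since its loci moved in opposite directions. Without libraries with over 10% of reads outside genes, Dnmt3b in F3 DMSO P5 turned from -0.36 to 2.24 and Dnmt3a in F3 TBT P4 from -0.83 to 0.53. The cause was not tested.

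Of the 8 genes, P5 against P4 called 1 in F1 DMSO and 0 with a mean of log2, and called 4 in F1 TBT and 2 with the quasi-likelihood test, with the same total per library or with median-ratio scaling. P4 against P6 in F3 DMSO went from 3 to 5 with median-ratio scaling, and to 6 without libraries under 2000000 reads or without those with over 10% outside genes. P5 against P6 in F3 DMSO went from 3 to 1 with the quasi-likelihood test, 6 with median-ratio scaling and 5 with a mean of log2. P4 against P6 in F3 TBT went from 4 to 7 with median-ratio scaling and 8 without libraries with over 10% outside genes. P5 against P6 in F3 TBT went from 1 to 3 with a pseudocount of 4 reads, 2 with the same total, 4 with median-ratio scaling, 2 and 6 without libraries under 1000000 and 2000000 reads, 4 without those with over 10% outside genes and 4 with a mean of log2. Over all genes, median-ratio scaling raised the lower calls from 2966 to 5950 in DMSO P4 and from 2294 to 4747 in DMSO P5. In TBT P4 they rose from 2686 to 6104 and in TBT P5 from 1480 to 4355. The higher calls fell from 2567 to 1556, from 2634 to 2375, from 1786 to 1583 and from 2673 to 2303, in the same order.

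Leaving out 1 library in turn gave 2 to 5 calls for P5 against P4 in F1 TBT (moved most by P4 libraries 47-4 and 47-5 and P5 libraries 45-3, 45-4, 47-1 and 47-3). It gave 2 to 6 for P4 against P6 in F3 DMSO (6 without P5 library 2), 1 to 3 for P5 against P6 in F3 DMSO (1 without any of the P6 libraries) and 1 to 2 for P5 against P6 in F3 TBT (2 without P5 library 7).

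With the replicate number as a block, P5 against P4 called 2 genes in F1 DMSO in place of 1 (Dnmt3l added, -0.54, adjusted p = 0.0487) and 5 in F1 TBT in place of 4 (Dnmt1 added, -0.42, adjusted p = 0.0213), and the other blocked counts were those without the block. Same-numbered P4 and P5 libraries had correlated deviations over 0.1 in 6 of 11 pairs in F1 and 7 of 9 in F3, and 6 and 4 correlated best with their own number. In F3 0 of 9 pairs of P6 with P4 or P5 were over 0.1. Such correlations between different cells cannot show whether same-numbered libraries came from the same animals, and the labels do not say. F1 P6 shares no number with the germline libraries. In F3 P5 TBT library 5, the shallowest, values under 2.87 CPM rest on fewer than 3 reads.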
